A study of Homo sapiens with 6 samples.

Results

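The HSP and DNAJ chaperone genes are the 69 gene symbols, of 15832 in the deposited table, that begin with HSPA, HSPB or DNAJ A, B or C and a digit, or with HSP90, HSPD1, HSPE1 or HSPH1. They comprise 15 HSP70-type genes (HSPH1 included), 3 HSP90 genes, the chaperonin pair HSPD1 and HSPE1, 6 symbols of the small heat shock protein series and 42 DNAJ genes (4 DNAJA, 11 DNAJB and 27 DNAJC). The remaining symbol, HSPE1-MOB4, is a readthrough of HSPE1 into its neighbour. RNA was sequenced from AsPC-1, an established line of human pancreatic cancer, at 48 h of transfection with an siRNA against VCPIP1 (siVCPIP1, 3 libraries) or with a control siRNA (siControl, 3 libraries). Both groups are the same line under the same transfection, and the labels name no further treatment. The labels do not say how many siRNAs were used and do not name separate cultures for the libraries of a group. The p-values therefore measure spread among these libraries alone, and that spread may be technical.

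Molecular chaperones bind unfolded or partly folded proteins and use cycles of ATP binding and release to let them fold. HSP70 proteins hold short hydrophobic stretches, J-domain (DNAJ) proteins bring clients and trigger the ATPase of HSP70, and HSP110-type proteins and other nucleotide exchange factors reset it. HSP90 matures kinases and receptors handed over from HSP70, the HSP60 and HSP10 chaperonin encloses proteins in the mitochondrial matrix, and small heat shock proteins hold unfolded clients without ATP. Under heat or proteotoxic stress the factor HSF1 binds heat shock elements, inverted repeats of the unit GAA, and raises many of these genes. Stress in the endoplasmic reticulum (ER) acts on ER chaperone genes through a separate promoter element, the ER stress element. Carcinoma lines commonly express cytosolic HSP90, HSC70 (HSPA8) and HSPB1 at high levels.

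The promoter stretches below are shown because they carry the element by which the family is best known, in genes that had opposite or unequal changes. They are RefSeq sequences on GRCh38.p14, written 5′ to 3′ in the direction of the gene, and lie within the 250 bases before the annotated start. Capitals mark each match to the 2-unit heat shock element (GAANNTTC or TTCNNGAA, each its own reverse complement, with overlapping matches joined) or, for HSPA5 and HSP90B1, the ends of the ER stress element (CCAAT and CCACG with 9 bases between, either strand). For HSPD1, HSP90AA1, HSPA8 and HSP90B1, where an annotated exon lies over the stretch, the matches alone are given.
HSP90AB1 (chr6:44247762-44247859, plus strand): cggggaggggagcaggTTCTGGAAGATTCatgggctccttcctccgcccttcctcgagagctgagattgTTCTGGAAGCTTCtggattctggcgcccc
HSP90AA1 (chr14:102087105-102087132, minus strand): TTCCGGAAGGTTCgggaggcTTCTGGAA
HSPA8 (chr11:123062354-123062366, minus strand): GAAAGTTCCAGAA
HSPA8 (chr11:123062179-123062191, minus strand): TTCTGGAAGGTTC
HSPA1A (chr6:31815421-31815460, plus strand): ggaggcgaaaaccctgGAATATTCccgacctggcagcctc
HSPD1 (chr2:197500068-197500085, minus strand): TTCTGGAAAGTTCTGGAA
DNAJB1 (chr19:14518421-14518490, minus strand): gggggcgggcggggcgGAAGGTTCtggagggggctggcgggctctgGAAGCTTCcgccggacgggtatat
DNAJB6 (chr7:157336857-157336901, plus strand): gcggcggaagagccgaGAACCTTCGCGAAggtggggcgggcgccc
HSPB1 (chr7:76302475-76302514, plus strand): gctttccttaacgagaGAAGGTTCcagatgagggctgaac
HSPA5 (chr9:125241375-125241425, minus strand): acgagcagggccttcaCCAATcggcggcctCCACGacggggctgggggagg
HSP90B1 (chr12:103930216-103930234, plus strand): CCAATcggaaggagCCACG
HSP90B1 (chr12:103930321-103930339, plus strand): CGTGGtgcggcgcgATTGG

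Promoters were found for 62 of the 69 members, with 81 windows among them, since some genes have several starts. A 2-unit heat shock element was present before an annotated start of 19 of these 62 genes (30.6%), against 14.0% of 27305 genes in the RefSeq set. Of the 62, 6 (9.68%) held 3 units in a row (GAANNTTCNNGAA or TTCNNGAANNTTC), namely HSP90AA1, HSP90AB1, HSPA8, HSPD1, HSPA6 and DNAJB6, against 0.557% of all genes. The ER stress element was found in HSPA5 and HSP90B1 (3.23% of the 62, against 0.0916% of all genes). A match is a run of letters and was not tested as a binding site. The capitals in HSPB1 and HSPA1A are each a single 2-unit match, while HSP90AB1 has a pair of 3-unit runs.

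The 2 groups of libraries differed in far more than the chaperones. The median TPM (a length-scaled share of a library, scaled so that every library has the same total) over all symbols was 1.24 to 2.26 in siVCPIP1 cells and 6.18 to 7.44 in siControl cells. Replicate 3 of siVCPIP1 stood apart from the other two at 2.26, and for 50 of the 53 members tested it was the siVCPIP1 library closest to the siControl mean (84.0% of all genes tested). VCPIP1 had 0.12, 0.11 and 0.27 TPM in siVCPIP1 cells, against 2.93, 3.06 and 2.24 TPM in siControl cells, a log2 change of -1.68 (SE 0.13, adjusted p = 2.0e-05 by limma). That change was 0.27 once corrected for GC and length (limma, adjusted p = 0.065) with the pseudocount of 1 TPM and -0.55 with one of 0.1 TPM (limma, adjusted p = 0.016). Of the 8 epithelial and ductal markers in the table, 4 rose and 4 fell. KRT8, KRT18 and KRT19 lay between 3909 and 8924 TPM in the 6 libraries. EPCAM had 3.19, 2.99 and 11.69 TPM in siVCPIP1 cells, against 162, 196 and 157 TPM in siControl cells. Of the leukocyte markers PTPRC stayed at or under 0.66 TPM and LYZ at or under 2.15 TPM, while CD68, also a lysosomal gene of other cells, lay between 120.5 and 158 TPM in both groups, and the endothelial markers PECAM1 and VWF at or under 1.27 TPM. The summed fibroblast markers held 1.5 to 4.51 TPM in siVCPIP1 cells and 45.3 to 69.0 TPM in siControl cells. LUM made up nearly all of the siControl sums. In siVCPIP1 cells LUM had 1.24, 1.08 and 3.71 TPM and COL1A1 0.51, 0.34 and 0.5 TPM. The part of these differences in the chaperone results was not tested. TPM is a share of each library, so fewer cells and less RNA per cell cannot be told apart here, nor can a gene's fall from a rise of others.

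Most chaperone transcripts took a smaller share of the library in siVCPIP1 cells than in siControl cells, HSP70, HSP90 and HSP60 among them, and HSPB1 was the one abundant member with a larger share besides DNAJC4. Tests were run on the 53 of the 69 members whose 6 libraries averaged 1 TPM or more, and 16 were not tested. Of those 53, 44 fell and 4 rose (HSPB1, DNAJB2, DNAJB13 and DNAJC4) on TPM as deposited, and DNAJB5, DNAJB12, DNAJC12, DNAJC17 and DNAJC30 were not called (limma on log2(TPM + 1), Benjamini-Hochberg adjusted p under 0.05 over 10966 genes). Over all genes tested, 66.0% were lower and 15.0% higher (81.0% in all), against 83.0% and 7.55% of these 53. The median log2 fold change of the 53 was -1.77, against -1.12 for all genes tested, and the groups did not overlap in 52 of them, DNAJC30 being the exception (86.0% of all genes had no overlap). Without siVCPIP1 replicate 3, 48 members were lower and 5 higher. In 7 of the 53, a siVCPIP1 mean under 1 TPM stood beside a siControl mean over it. These were HSPA4L, HSPA13, DNAJC10, DNAJC13, DNAJC16, DNAJC24 and DNAJC25. In DNAJB13 and DNAJC12 it was the reverse. These 9 thus passed the filter through 1 group, and the filter favoured the direction of their changes. The summed TPM of all 69 members was 3616 ± 407 TPM in siVCPIP1 cells and 7231 ± 364 TPM in siControl cells (SD, n = 3 each).

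**Figure D1:**
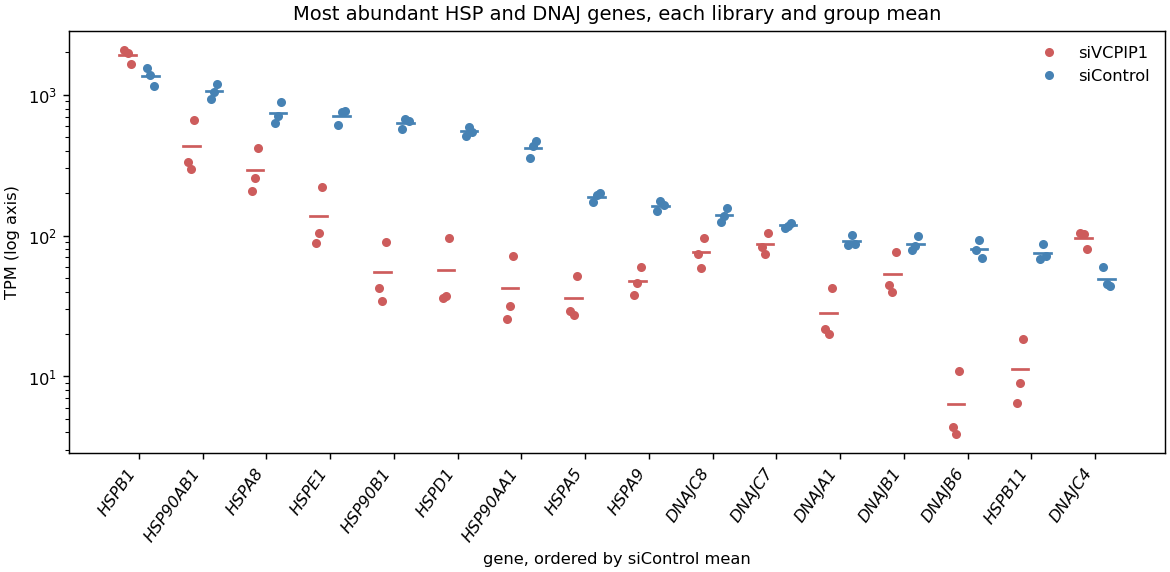
TPM on a log axis for the 16 members with the highest siControl mean, one point per library and a line at the group mean, with siVCPIP1 in red to the left of siControl in blue. HSPB1 and DNAJC4 are the genes with red points above blue ones, and in the other 14 genes every red point lies below every blue point.

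Of 15 HSP70-type genes, 10 were tested, and 10 fell and 0 rose on TPM as deposited, with a median of -2.34, beside 66.0% of all genes lower. With GC and length corrected for, 6 were lower and 2 higher, beside 31.7% and 37.2% of all genes. HSPA8 encodes HSC70, the constitutive cytosolic HSP70 that folds new proteins and uncoats clathrin vesicles. It had 208, 257 and 419 TPM in siVCPIP1 cells, against 633, 711 and 893 TPM in siControl cells. The libraries did not overlap, and replicate 3 of siVCPIP1 lay nearest to siControl. The log2 fold change was -1.39 (SE 0.25, adjusted p = 7.9e-04 by limma), -0.26 from the median of all genes. After scaling each library by its median ratio to the others it was -0.16 (limma, adjusted p = 0.49), and after removal of each library's trend on GC content and length it turned to 0.44 (limma, adjusted p = 0.024).

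HSPA1A and HSPA1B are the stress-inducible HSP70 genes, intronless neighbours on chromosome 6 (HSPA1A from 31815464 to 31817946 and HSPA1B from 31827735 to 31830255, GRCh38, GENCODE 29). Their products are nearly identical, so reads may be split between them and the individual values are uncertain. HSPA1A had 3.52, 2.94 and 11.63 TPM in siVCPIP1 cells, against 36.02, 44.95 and 34.43 TPM in siControl cells. HSPA1B had 3.3, 2.98 and 10.17 TPM in siVCPIP1 cells, against 23.43, 27.67 and 28.78 TPM in siControl cells. In both genes every siVCPIP1 library lay below every siControl library. HSPA1A fell by 2.69 and HSPA1B by 2.26 on the log2 scale (limma, adjusted p = 2.6e-04 and 4.5e-04). Their GC contents of 59.7% and 58.7% were among the 8 values of at least 55% in the 53 members. Genes of such GC content had a median change of 0.14. HSPA1A and HSPA1B kept their direction once corrected for GC and length, at -2.66 and -2.12 (limma, adjusted p = 3.1e-04 and 4.6e-04).

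HSPA5 encodes BiP, the HSP70 of the ER and a sensor partner of the unfolded protein response. It had 29.26, 27.32 and 51.63 TPM in siVCPIP1 cells, against 175, 194 and 199.8 TPM in siControl cells, with no overlap, and its log2 fold change was -2.42 (SE 0.23, adjusted p = 2.5e-05 by limma). HSPA9 encodes mortalin, the HSP70 of the mitochondrial matrix that also drives protein import. It had 37.92, 46.23 and 59.44 TPM in siVCPIP1 cells, against 149.9, 175 and 164 TPM in siControl cells, a log2 fold change of -1.77 (SE 0.18, adjusted p = 3.0e-05 by limma). With GC and length corrected for, HSPA5 lay at -0.58 (limma, adjusted p = 0.0022), a call lost when the pseudocount was 0.1 TPM (-0.15, limma, adjusted p = 0.22), while HSPA9 moved to 0.22 and was not called (limma, adjusted p = 0.1).

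The HSP110-type genes, whose proteins act as nucleotide exchange factors of HSP70, fell to different degrees. HSPH1 had 2.29, 2.34 and 6.23 TPM in siVCPIP1 cells, against 43.13, 49.64 and 38.24 TPM in siControl cells. HSPA4 had 11.17, 13.28 and 16.36 TPM in siVCPIP1 cells, against 36.36, 46.93 and 48.09 TPM in siControl cells. HSPH1 kept 8.29% of its siControl mean and HSPA4 31.1%. The log2 fold changes were -3.37 and -1.62 (limma, adjusted p = 2.3e-05 and 7.1e-05), but the HSPA4 change turned to 0.43 once corrected for GC and length (limma, adjusted p = 0.027), where HSPH1 remained at -1.22.

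HSPA14 and HSPA13 fell as far in log2 terms at lower levels. HSPA14, a ribosome-associated HSP70, had 0.26, 0.64 and 3.04 TPM in siVCPIP1 cells, against 23.14, 22.83 and 21.09 TPM in siControl cells. HSPA13, which lies in the ER, had 0.34, 0.21 and 0.83 TPM in siVCPIP1 cells, against 10.32, 12.88 and 7.3 TPM in siControl cells. Replicates 1 and 2 of siVCPIP1 were below 1 TPM in both genes, where the added pseudocount of 1 limits the log2 fall. The fold changes were -3.52 and -2.93 (limma, adjusted p = 4.4e-05 and 2.0e-05). HSPA4L, an HSP110-type gene, changed by -1.65 (limma, adjusted p = 2.9e-05) and lay at 0.26 after correction. The 5 genes under the filter were HSPA2, HSPA12A, HSPA1L, HSPA6 and HSPA12B. HSPA2, the testis-enriched form, had 0.05, 0.03 and 0.25 TPM in siVCPIP1 cells, against 1.63, 1.62 and 1.75 TPM in siControl cells, without overlap but untested. HSPA6, the strictly inducible HSP70 of humans, had 0.22, 0.27 and 0.26 TPM in siVCPIP1 cells, against 0.18, 0.3 and 0.72 TPM in siControl cells, and the groups overlapped.

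All 3 genes with HSP90 symbols fell on TPM as deposited, by unequal amounts, beside 66.0% of all genes lower. HSP90AB1 turned once corrected for GC and length. HSP90AB1 encodes the constitutive cytosolic form and was the second most abundant member in siControl cells. It had 333, 297 and 664 TPM in siVCPIP1 cells, against 932, 1044 and 1196 TPM in siControl cells. HSP90AA1, the stress-inducible cytosolic form, had 25.42, 31.64 and 71.44 TPM in siVCPIP1 cells, against 358, 436 and 467 TPM in siControl cells. HSP90B1, which encodes GRP94 of the ER, had 42.25, 34.28 and 90.09 TPM in siVCPIP1 cells, against 575, 677 and 653 TPM in siControl cells. No siVCPIP1 library of any of these genes reached the lowest siControl library. HSP90AB1 kept 40.8% of its siControl mean, HSP90AA1 10.2% and HSP90B1 8.74%. The log2 fold changes were -1.38, -3.40 and -3.61 (limma, adjusted p = 0.0015, 2.7e-05 and 2.0e-05). HSP90AB1 lay -0.26 from the median of all genes, and its call was lost under median-of-ratios scaling (-0.15, limma, adjusted p = 0.51) and once corrected for GC and length, where its sign turned (0.28, limma, adjusted p = 0.11). HSP90AA1 and HSP90B1 stayed lower under both, at -1.23 and -1.34 after the correction. TRAP1, an HSP90-type gene of mitochondria, lies outside the symbol rule, is counted with the co-chaperones below and went the other way. Its log2 fold change was 0.33 (SE 0.11, limma, adjusted p = 0.025), and it lay at 0.46 once corrected for GC and length (limma, adjusted p = 0.0019).

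The mitochondrial chaperonin genes lie head to head on chromosome 2, HSPE1 on the plus strand and HSPD1 on the minus strand, with annotated RefSeq starts 105 or 539 bp apart. The 3-match heat shock element shown above lies between the HSPE1 start and the farther of the HSPD1 starts. It is downstream of the nearer HSPD1 start and so outside the 105 bp between that start and HSPE1. HSPD1 encodes HSP60, the chamber, and HSPE1 encodes HSP10, its lid. HSPD1 had 35.92, 37.17 and 96.77 TPM in siVCPIP1 cells, against 508, 595 and 549 TPM in siControl cells. HSPE1 had 89.35, 105 and 219.9 TPM in siVCPIP1 cells, against 616, 751 and 769 TPM in siControl cells. Both were lower in every siVCPIP1 library than in every siControl library, with log2 fold changes of -3.41 and -2.47 (limma, adjusted p = 2.8e-05 and 7.5e-05). With GC and length corrected for, they lay at -1.26 and -1.65, both called lower. The readthrough HSPE1-MOB4 was under the filter, with 0, 0.17 and 0.53 TPM in siVCPIP1 cells, against 0, 2.24 and 2.63 TPM in siControl cells.

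In the small heat shock protein group the leading gene rose on TPM as deposited, which turned once corrected for GC and length. HSPB1 (HSP27), which holds unfolded proteins and binds actin, was the most abundant of all 69 members in both groups. It had 2069, 1999 and 1659 TPM in siVCPIP1 cells, against 1554, 1393 and 1151 TPM in siControl cells. The groups did not overlap, and siVCPIP1 replicate 3 and siControl replicate 1 were the libraries closest to each other. HSPB1 had a log2 fold change of 0.49 (SE 0.15, adjusted p = 0.013 by limma), which turned to -0.28 once corrected for GC and length (limma, adjusted p = 0.015) and which was not called without siControl replicate 3 (0.37, limma, adjusted p = 0.053) or without siVCPIP1 replicate 1 (0.43, limma, adjusted p = 0.054). It was called higher under median-of-ratios scaling (1.72, limma, adjusted p = 3.5e-04) and quantile normalization (0.40, limma, adjusted p = 0.024). HSPB1 lies on chromosome 7 from 76302544 to 76304295 and has a GC content of 64.5%, the highest of the members tested. HSPB11 carries the family's symbol but is known as IFT25, a part of the intraflagellar transport complex of cilia. It had 6.53, 8.92 and 18.6 TPM in siVCPIP1 cells, against 67.87, 87.72 and 72.09 TPM in siControl cells, a log2 fold change of -2.75 (SE 0.32, adjusted p = 6.1e-05 by limma), and stayed lower after correction (-2.31). HSPB2, HSPB6, HSPB8 and HSPB9 had at most 0.95 TPM in any library and were not tested.

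**Figure D2:**
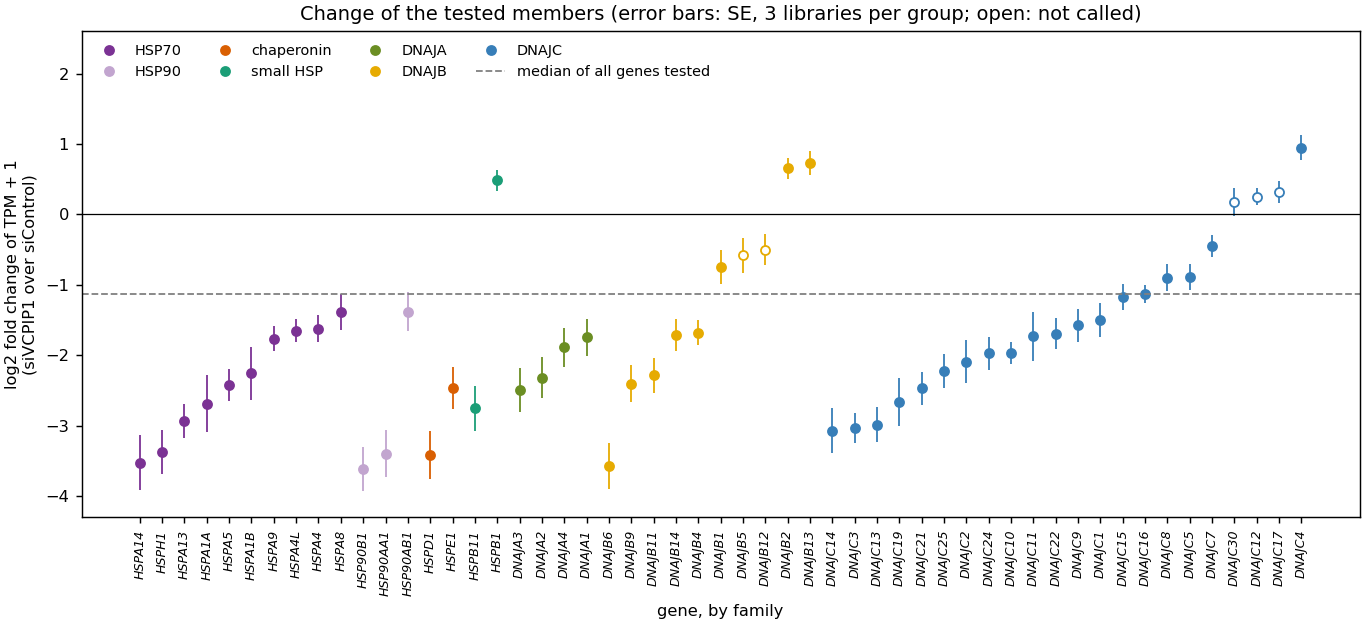
Log2 fold change of TPM + 1, siVCPIP1 over siControl, with its SE for each of the 53 tested members grouped by family, where open points were not called and the dashed line is the median of all genes tested (-1.12). All HSP70, HSP90, chaperonin and DNAJA points lie below 0 on TPM as deposited, while HSPB1, DNAJB2, DNAJB13 and DNAJC4 are called above it.

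Most J-domain genes fell on TPM as deposited, and so did most genes of any kind. Of 42 DNAJ genes, 36 were tested, of which 28 fell (77.8%), 3 rose (8.33%) and 5 had no call, at a median of -1.70. Of the 27 HSP and readthrough symbols, 17 were tested, 16 fell and 1 rose, with a median of -2.47. Over all genes tested, 66.0% were lower and 15.0% higher, with a median of -1.12. With GC and length corrected for, the counts were 11 lower and 15 higher for the DNAJ genes and 12 lower and 2 higher for the HSP genes, against 31.7% lower and 37.2% higher over all genes. The difference between these lists was not tested.

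The 4 DNAJA genes encode J-domain proteins built like the bacterial DnaJ, with a zinc-finger-like region. All 4 fell on TPM as deposited, beside 66.0% of all genes lower. DNAJA1, the main cytosolic form, had 21.64, 19.93 and 42.68 TPM in siVCPIP1 cells, against 86.34, 101 and 86.97 TPM in siControl cells. DNAJA2 had 3.92, 4.33 and 9.55 TPM in siVCPIP1 cells, against 28.44, 34.8 and 31.47 TPM in siControl cells. DNAJA3, the mitochondrial form (TID1), had 4.57, 4.05 and 10.86 TPM in siVCPIP1 cells, against 37.02, 43.46 and 33.95 TPM in siControl cells. In none of the 3 did the groups overlap. The log2 fold changes were -1.75, -2.32 and -2.49 (limma, adjusted p = 2.9e-04, 9.4e-05 and 9.7e-05), and DNAJA4, with a mean of 9.40 TPM in siControl cells, changed by -1.89. With GC and length corrected for, DNAJA1 turned to 0.62 (limma, adjusted p = 0.0012), DNAJA2 and DNAJA4 missed the call at -0.01 and -0.31 (adjusted p from limma 0.93 and 0.083), and DNAJA3 stayed lower at -1.71.

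Among the 11 DNAJB genes, 10 were tested, and 6 fell, 2 rose and 2 were not called on TPM as deposited. Of all genes, 66.0% were lower and 15.0% higher. Once corrected for GC and length, 2 were lower and 5 higher, beside 31.7% and 37.2% of all genes. DNAJB6, which blocks the aggregation of polyglutamine proteins, had 4.37, 3.92 and 10.98 TPM in siVCPIP1 cells, against 79.23, 92.49 and 69.75 TPM in siControl cells. It kept 7.98% of its siControl mean, a log2 fold change of -3.57 (SE 0.32, adjusted p = 2.2e-05 by limma), and stayed lower after correction (-1.22). DNAJB1 (HSP40), the stress-inducible partner of HSP70 in disaggregation, had 44.59, 39.76 and 76.28 TPM in siVCPIP1 cells, against 78.88, 84.09 and 99.2 TPM in siControl cells. Its siVCPIP1 replicate 3 lay just under the lowest siControl library. DNAJB1 fell by 0.75 (limma, adjusted p = 0.017), less than the median of all genes, and lay at 0.46 under median-of-ratios scaling (limma, adjusted p = 0.024) and at 0.12 once corrected for GC and length. Leaving out siControl replicate 3, siVCPIP1 replicate 1 or siVCPIP1 replicate 2 gave changes of -0.65, -0.65 and -0.57 and lost that call (limma, adjusted p = 0.065, 0.055 and 0.062).

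The ER-resident DNAJB11 (ERdj3), a co-chaperone of BiP, had 7.15, 7.59 and 13.72 TPM in siVCPIP1 cells, against 41.98, 52.33 and 50.95 TPM in siControl cells. DNAJB9 (ERdj4), which recruits BiP to IRE1, had 0.73, 0.56 and 2 TPM in siVCPIP1 cells, against 8.73, 10.52 and 9.65 TPM in siControl cells. In both genes the groups were separate, with log2 fold changes of -2.28 and -2.40 (limma, adjusted p = 4.0e-05 and 4.0e-05), and the DNAJB9 change was -0.02 after correction (limma, adjusted p = 0.91). DNAJB2, a ubiquitin-binding form enriched in neurons, had 34.99, 33.43 and 37.77 TPM in siVCPIP1 cells, against 22.06, 23.07 and 21.24 TPM in siControl cells. It rose by 0.65 (SE 0.14, limma, adjusted p = 0.0026). DNAJB13, a part of the axonemal radial spoke of cilia and flagella, had 2.38, 2.09 and 1.78 TPM in siVCPIP1 cells, against 0.81, 0.55 and 1.26 TPM in siControl cells and rose by 0.73 (limma, adjusted p = 0.0032). DNAJB2 was also higher under median-of-ratios scaling, quantile normalization and GC and length correction. So was DNAJB13, which reached the 1 TPM filter through siVCPIP1 cells alone, the group where it is high.

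DNAJB12 and DNAJB5 were not called on TPM as deposited. DNAJB12, of the ER membrane, averaged 12.9 ± 3.91 TPM in siVCPIP1 cells and 18.2 ± 0.625 TPM in siControl cells (SD, n = 3 each). DNAJB5 averaged 8.25 ± 3.19 TPM in siVCPIP1 cells and 12.3 ± 0.320 TPM in siControl cells. Both were called lower without siVCPIP1 replicate 3, at -0.72 and -0.85 (limma, adjusted p = 4.5e-05 and 1.1e-05), and both turned to 0.65 and 0.53 under median-of-ratios scaling. DNAJB4 and DNAJB14 fell by 1.68 and 1.71 on the log2 scale, but DNAJB14 lay at 0.44 and DNAJB4 at 0.56 once corrected for GC and length. DNAJB7 was under the filter.

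DNAJC genes share only the J-domain and work in many places. Of 27, 22 were tested, and 18 fell, 1 rose and 3 were not called on TPM as deposited, beside 66.0% lower and 15.0% higher of all genes. Once corrected for GC and length, 8 were lower and 9 higher, beside 31.7% and 37.2% of all genes. DNAJC4, a little-studied form, had 105, 104 and 80.18 TPM in siVCPIP1 cells, against 59.61, 45.34 and 43.58 TPM in siControl cells, about as high in siVCPIP1 replicate 1 as in replicate 2 and lower in replicate 3. It rose by 0.95 (SE 0.18, limma, adjusted p = 9.5e-04) and stayed higher after correction (0.31, limma, adjusted p = 0.028). Its GC content was 64.2%. DNAJC17, DNAJC12 and DNAJC30 were not called, at 0.32, 0.25 and 0.18 (limma, adjusted p = 0.089, 0.078 and 0.44). DNAJC17, a nuclear protein linked to splicing, had 34.15, 32.07 and 27.31 TPM in siVCPIP1 cells, against 23.41, 24.45 and 26.37 TPM in siControl cells. DNAJC30, a mitochondrial protein, had 6.72, 7.02 and 7.86 TPM in siVCPIP1 cells, against 7.57, 6.46 and 4.95 TPM in siControl cells, and these overlapped. Without siVCPIP1 replicate 3, DNAJC17 was called higher (0.41, limma, adjusted p = 0.0057).

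DNAJC8, a spliceosome-associated protein, and DNAJC7 (TPR2), a bridge between HSP70 and HSP90, were the most abundant DNAJ transcripts in siControl cells. DNAJC8 had 73.61, 58.89 and 96.97 TPM in siVCPIP1 cells, against 126, 138 and 158 TPM in siControl cells. DNAJC7 had 82.96, 73.5 and 105 TPM in siVCPIP1 cells, against 114, 118 and 123 TPM in siControl cells. Their values came close without overlap, most of all in siVCPIP1 replicate 3. They fell by 0.90 and 0.45 (limma, adjusted p = 0.0022 and 0.024), less than the median of all genes, and turned to 0.32 and 0.77 under median-of-ratios scaling and 1.22 and 1.10 once corrected for GC and length. The DNAJC7 call was lost without siControl replicate 2 or 3 and without siVCPIP1 replicate 1 or 2, at changes of -0.45, -0.42, -0.42 and -0.34 (limma, adjusted p = 0.067, 0.068, 0.087 and 0.10). DNAJC5, the cysteine string protein of secretory vesicles, fell by 0.89 to 53.8% of its siControl mean, a change that lay at 0.31 under median-of-ratios scaling.

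The deepest DNAJC falls were in DNAJC14, DNAJC3 and DNAJC13. DNAJC14, an ER membrane protein that escorts receptors, had 0.96, 0.77 and 3.2 TPM in siVCPIP1 cells, against 17.85, 22.07 and 18.75 TPM in siControl cells. DNAJC3 (p58IPK), an ER co-chaperone of BiP, had 0.97, 0.99 and 1.8 TPM in siVCPIP1 cells, against 15.08, 19.03 and 17.63 TPM in siControl cells. DNAJC13, the endosomal coat regulator RME-8, had 0.3, 0.39 and 1.1 TPM in siVCPIP1 cells, against 11.76, 14.08 and 8.77 TPM in siControl cells. The siVCPIP1 libraries of all 3 stayed at or under 3.20 TPM. Their log2 fold changes were -3.07, -3.03 and -2.98 (limma, adjusted p = 3.7e-05, 2.0e-05 and 2.0e-05), and once corrected for GC and length all 3 stayed lower at -1.91, -0.90 and -1.04. DNAJC19, of the mitochondrial import motor, had 1.54, 1.89 and 5.29 TPM in siVCPIP1 cells, against 19.65, 26.8 and 19.36 TPM in siControl cells, and its fall of 2.66 was -0.24 after correction (limma, adjusted p = 0.16). DNAJC2, a ribosome-associated form, had 5.67, 7.93 and 14.97 TPM in siVCPIP1 cells, against 35.98, 43.44 and 43.51 TPM in siControl cells, and its fall of 2.09 turned to 0.27 (limma, adjusted p = 0.12).

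The remaining DNAJC genes fell by amounts around or above the median of all genes. DNAJC9, which chaperones histones, had 7.98, 10.37 and 15.31 TPM in siVCPIP1 cells, against 29.95, 36.2 and 36.95 TPM in siControl cells. DNAJC11, of the mitochondrial cristae complex, had 7.01, 5.64 and 17.54 TPM in siVCPIP1 cells, against 31.25, 31.68 and 33.14 TPM in siControl cells. DNAJC22, a membrane protein, had 9.71, 8.55 and 13.89 TPM in siVCPIP1 cells, against 35.06, 42.68 and 31.53 TPM in siControl cells. In siVCPIP1 cells these 3 stayed below every siControl value, with log2 fold changes of -1.57, -1.73 and -1.69 (limma, adjusted p = 2.6e-04, 0.0015 and 1.0e-04). DNAJC11, with a GC content of 56.0%, stayed lower after correction at -1.08, DNAJC22 lay at -0.47 (limma, adjusted p = 0.0066), a call lost with a pseudocount of 0.1 TPM, and DNAJC9 turned to 0.36 (limma, adjusted p = 0.027).

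Among DNAJC genes of lower level, DNAJC21, which acts in the maturation of the large ribosomal subunit, had 0.74, 0.75 and 1.71 TPM in siVCPIP1 cells, against 10.07, 12.06 and 8.68 TPM in siControl cells. DNAJC10 (ERdj5), a disulfide reductase of the ER, had 0.53, 0.57 and 0.84 TPM in siVCPIP1 cells, against 5.36, 6.05 and 4.92 TPM in siControl cells. DNAJC24, a part of the diphthamide pathway, had 0.6, 0.48 and 1.11 TPM in siVCPIP1 cells, against 6.68, 6.96 and 3.92 TPM in siControl cells. All 3 were separate between the groups, and they fell by 2.47, 1.97 and 1.97 on the log2 scale (limma, adjusted p = 2.3e-05, 2.0e-05 and 6.4e-05), and after correction they lay at -0.36, -0.37 and 0.43 (limma, adjusted p = 0.01, 0.0077 and 0.06). The corrected values of DNAJC21 and DNAJC10 at a pseudocount of 0.1 TPM were -0.24 and -0.34 and no longer called (limma, adjusted p = 0.13 and 0.062). DNAJC25, DNAJC1, DNAJC15 and DNAJC16 had siControl means of 2.46 to 18.1 TPM and changed by -2.23, -1.50, -1.18 and -1.13, where DNAJC15 turned to 0.43 under quantile normalization (limma, adjusted p = 0.0099), and DNAJC15 and DNAJC16 turned to 0.86 and 0.73 and DNAJC25 to 0.16 after correction. The 5 DNAJC genes under the filter were DNAJC27, DNAJC6, DNAJC18, DNAJC28 and DNAJC5G, with at most 1.66 TPM in any library.

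Over all genes 66.0% were lower and 15.0% higher as deposited, and 31.7% and 37.2% after correction as the background of the counts that follow. By compartment, 11 of 12 tested ER members fell and 0 rose on TPM as deposited (7 lower and 3 higher once corrected for GC and length), with a median of -2.26. Of 9 tested mitochondrial members, 7 fell and DNAJC4 rose (4 lower and 3 higher after correction), with a median of -1.77. Of the 32 others, 26 fell and 3 rose (HSPB1, DNAJB2 and DNAJB13), against 12 lower and 11 higher after correction, with a median of -1.68. The ER list did not hold DNAJC14, described above as an ER membrane protein, so that gene is counted among these 32. The median GC contents of the 3 sets were 42.0%, 50.2% and 46.4%, and below 45% GC 97.4% of all genes fell. Of 10 tested heat-inducible members, 9 fell and HSPB1 rose (7 lower and 1 higher after correction), with a median of -2.36. Of 14 tested members with a heat shock element before an annotated start, 13 fell and 1 rose (6 lower and 4 higher after correction), with a median of -1.71. Of 34 without one, 26 fell and 3 rose (13 lower and 13 higher after correction), with a median of -1.87.

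The make-up of each family does not depend on a single scaling factor per library, and no GC and length correction of the shares was run. HSPA8 held 71.5% ± 1.49 in siVCPIP1 cells and 57.5% ± 3.83 in siControl cells of the summed HSP70 and HSPH1 transcripts (SD, n = 3 each), and HSPA5 held 8.81% ± 1.07 in siVCPIP1 cells and 14.7% ± 0.780 in siControl cells. The share of HSPA9 was 12.0% ± 1.54 in siVCPIP1 cells and 12.7% ± 1.15 in siControl cells, and its libraries overlapped between the groups. Of the summed transcripts of the 3 genes with HSP90 symbols, HSP90AB1 held 83.1%, 81.8% and 80.4% in the siVCPIP1 libraries. In the siControl libraries it held 49.98%, 48.4% and 51.6%. HSP90AA1 made up 8.81% ± 1.49 in siVCPIP1 cells and 28.4% ± 0.897 in siControl cells of the cytosolic pair. Within both sets of symbols, HSP70 with HSPH1 and HSP90, the constitutive cytosolic gene thus took a larger share in every siVCPIP1 library than in any siControl library. TRAP1, an HSP90-type gene of mitochondria outside the symbol rule, was not in these sums. It had 325, 306 and 351 TPM in siVCPIP1 cells, against 266, 250 and 265 TPM in siControl cells. Shares with TRAP1 included were not computed. Among DNAJ transcripts DNAJC4 held 17.9% ± 5.38 in siVCPIP1 cells and 4.45% ± 1.01 in siControl cells and DNAJB6 1.09% ± 0.449 in siVCPIP1 cells and 7.18% ± 0.838 in siControl cells.

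**Figure D3:**
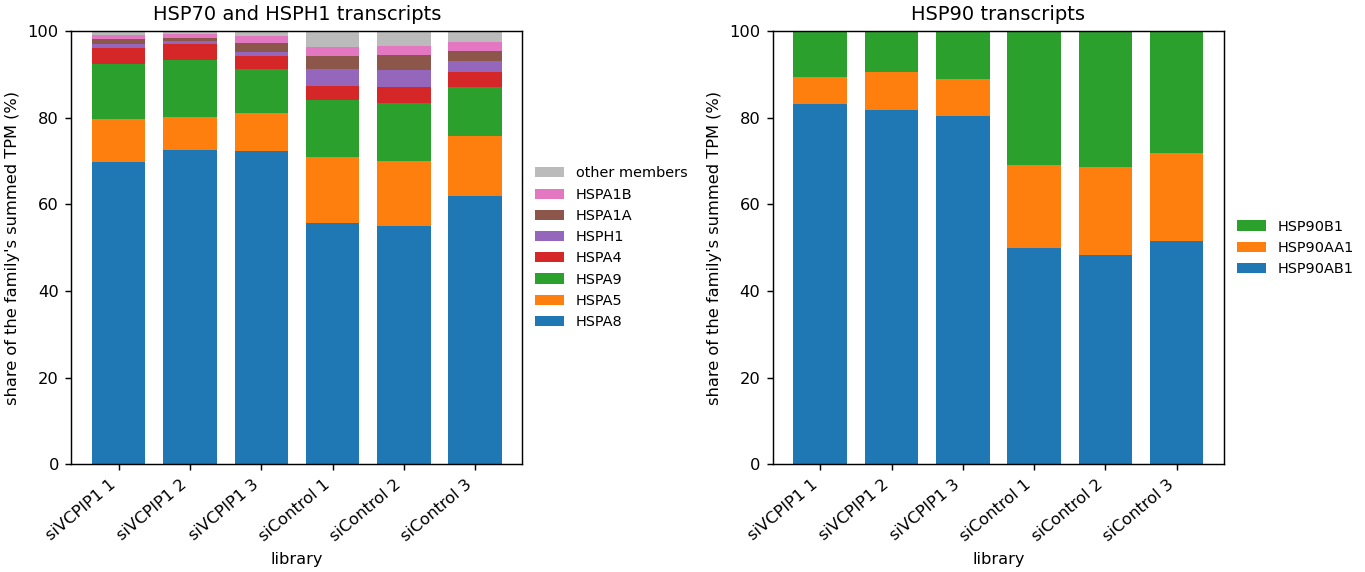
Share of the summed TPM of the HSP70 and HSPH1 genes (left) and of the HSP90 genes (right) held by each gene in percent, with one bar per library and siVCPIP1 left of siControl. HSP90AB1 (blue, right) fills 80.4% to 83.1% of the siVCPIP1 bars and 48.4% to 51.6% of the siControl bars.

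Ratios between 8 pairs of genes were compared library by library as log2 of (TPM + 1) over (TPM + 1), with a two-sided exact permutation test whose smallest p is 0.1 for 3 against 3 libraries. HSP90AA1 over HSP90AB1 was -3.35 ± 0.27 in siVCPIP1 cells and -1.33 ± 0.06 in siControl cells (SD, n = 3 each, exact permutation p = 0.1, 0.13 adjusted over the 8 pairs), a difference of -2.02. HSPH1 over HSPA8 was -6.04 ± 0.21 in siVCPIP1 cells and -4.06 ± 0.39 in siControl cells, a difference of -1.98. HSPA1A over HSPA8 differed by -1.30, but by -0.10 with overlap under quantile normalization (exact permutation p = 0.6). HSPD1 over HSPE1 differed by -0.95, which turned to 0.40 once corrected for GC and length. DNAJA1 over DNAJB1 was -0.93 ± 0.10 in siVCPIP1 cells and 0.07 ± 0.23 in siControl cells, and the difference turned to 0.51 after the correction. HSPA5 over HSP90B1 was higher in siVCPIP1 cells by 1.20. In these 6 pairs the uncorrected groups did not overlap and each gave the same p. HSPA9 over HSPA8 differed by -0.38 and DNAJB9 over DNAJB11 by -0.12, both with overlap (exact permutation p = 0.2), and the second turned to 0.82 after the correction.

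Co-chaperones and regulators outside the DNAJ genes went both ways. Of 46 tested genes of that list, 25 fell, 11 rose and 10 had no call, at a median of -0.83, where all genes had 66.0% lower, 15.0% higher and a median of -1.12. The correction gave 9 lower and 20 higher, beside 31.7% and 37.2% of all genes. The heat shock factor HSF1 had 190.4, 186 and 185 TPM in siVCPIP1 cells, against 145, 132 and 109.8 TPM in siControl cells, and rose by 0.54 (SE 0.14, limma, adjusted p = 0.0051), a call lost once corrected for GC and length (0.15, limma, adjusted p = 0.15). HSF2 had 0.67, 0.52 and 1.88 TPM in siVCPIP1 cells, against 7.47, 9.19 and 8.43 TPM in siControl cells, and fell by 2.27, although it lay at 0.12 after correction. PTGES3 (p23), which holds HSP90 in its closed state, had 24.22, 26.77 and 75.89 TPM in siVCPIP1 cells, against 419.8, 526 and 527 TPM in siControl cells. ST13 (HIP), which steadies HSP70 in its client-bound state, had 11.62, 10.83 and 24.68 TPM in siVCPIP1 cells, against 110.0, 126 and 105 TPM in siControl cells. Their log2 fold changes were -3.70 and -2.87 (limma, adjusted p = 3.2e-05 and 2.8e-05). BAG2, an exchange factor of HSP70, CHORDC1, an HSP90 co-chaperone, and SEC63, a J-domain protein of the ER translocon, changed by -3.22, -2.78 and -2.80. Once corrected, CHORDC1 lay at -0.37 and was not called (limma, adjusted p = 0.056). ST13 lay at -0.64 (limma, adjusted p = 0.003). Its call was lost at a pseudocount of 0.1 TPM, where it lay at -0.05 (limma, adjusted p = 0.68).

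The largest rises of that list were in FKBP8, an HSP90-binding immunophilin of mitochondria, and HSPBP1, an exchange factor of HSP70. FKBP8 had 679, 668 and 474 TPM in siVCPIP1 cells, against 329, 269 and 201 TPM in siControl cells. HSPBP1 had 166, 156 and 129.9 TPM in siVCPIP1 cells, against 89.93, 71.6 and 62.86 TPM in siControl cells. They rose by 1.19 and 1.01 (limma, adjusted p = 6.7e-04 and 5.2e-04). CLPB, a mitochondrial disaggregase, SGTA, which passes tail-anchored proteins on, and SIL1, the exchange factor of BiP, rose by 0.90, 0.87 and 0.68. These 5 genes were also higher under median-of-ratios scaling and once corrected for GC and length, where CLPB, with a GC content of 47.2%, lay at 2.32.

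The change of the chaperone genes moved with the GC content of their transcripts. Across the 53 tested members, which share the same 6 libraries, log2 fold change and GC content had a Pearson r of 0.49 (Spearman rho 0.38), against 0.72 (0.74) over 10915 genes. Of 27 members under 45% GC, 26 fell and 0 rose (96.3%), where 97.4% of all genes in that range fell. Of 7 members at 45% to 50%, 7 fell, where 89.1% of genes fell. Of 11 members at 50% to 55%, 7 fell (63.6%), where 66.5% of genes fell. Of 8 members at 55% or more, HSPA1A, HSPA1B, DNAJC11 and DNAJC5 fell and HSPB1, DNAJC4 and DNAJB2 rose, where 26.8% of all genes fell. The median GC content was 44.5% for the 53 members and 50.4% for all genes tested. The part of GC content in the fall was not tested beyond the corrected fit.

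**Figure D4:**
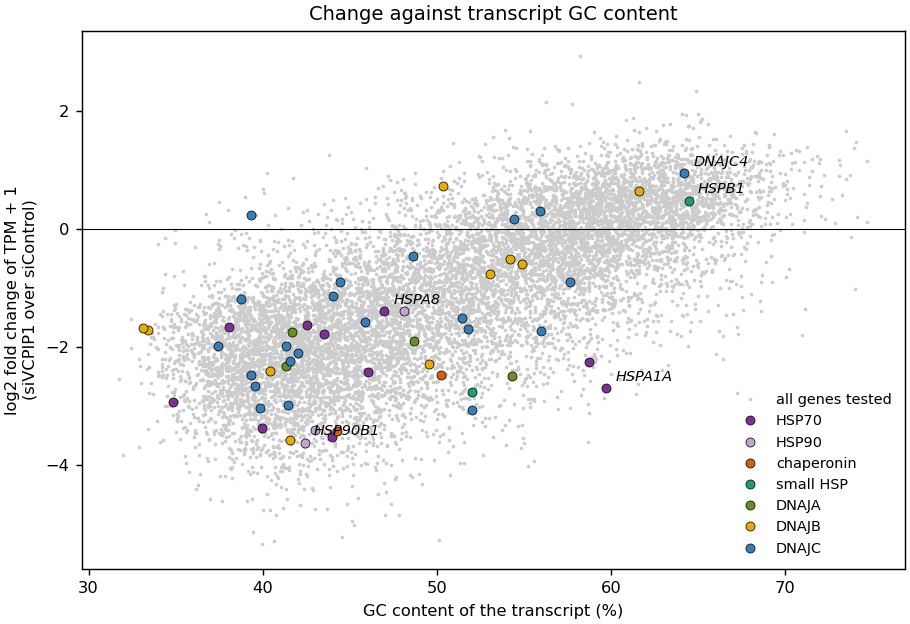
Log2 fold change of TPM + 1 (siVCPIP1 over siControl) against the GC content of 1 transcript per gene in percent, with all genes tested in grey and the 53 tested members in colour by family. Of 27 members under 45% GC, all but DNAJC12 (39.3% GC, log2 fold change 0.25) lie below 0. HSPA1A at 59.7% lies at -2.69, where grey points have a median of 0.14.

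The counts of members depended on the scaling. On TPM as deposited 44 were lower and 4 higher. Median-of-ratios scaling, under which the median over all genes was -0.14, gave 37 members lower and 11 higher, where 45.1% and 40.3% of all genes were called. Quantile normalization gave 34 lower and 10 higher, where 40.6% and 41.1% were called. With GC and length corrected for, 23 members were lower and 17 higher, where 31.7% and 37.2% of genes were called, and the median of the members was -0.02, against 0.07 for all genes. With a pseudocount of 0.1 TPM in that fit, 19 members were lower and 20 higher, where 31.0% and 36.0% of genes were called. Of the 53, 21 were lower on TPM as deposited, under both scalings and after the correction with a pseudocount of 1, namely HSPA1A, HSPA1B, HSPA5, HSPA13, HSPA14, HSPH1, HSP90AA1, HSP90B1, HSPD1, HSPE1, HSPB11, DNAJA3, DNAJB6, DNAJB11, DNAJC3, DNAJC10, DNAJC11, DNAJC13, DNAJC14, DNAJC21 and DNAJC22. DNAJB2, DNAJB13 and DNAJC4 were higher in the same 4 fits. The share of all genes that kept a call in 1 direction through these 4 fits was not counted. The 21 and the 3 therefore have no background beside them. HSPA13, DNAJC10 and DNAJC13 had reached the filter through siControl cells alone and DNAJB13 through siVCPIP1 cells alone, so for these 4 the direction was favoured by the filter. HSPA5, DNAJC10, DNAJC21 and DNAJC22 were not called after the correction with a pseudocount of 0.1 TPM.

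**Figure D5:**
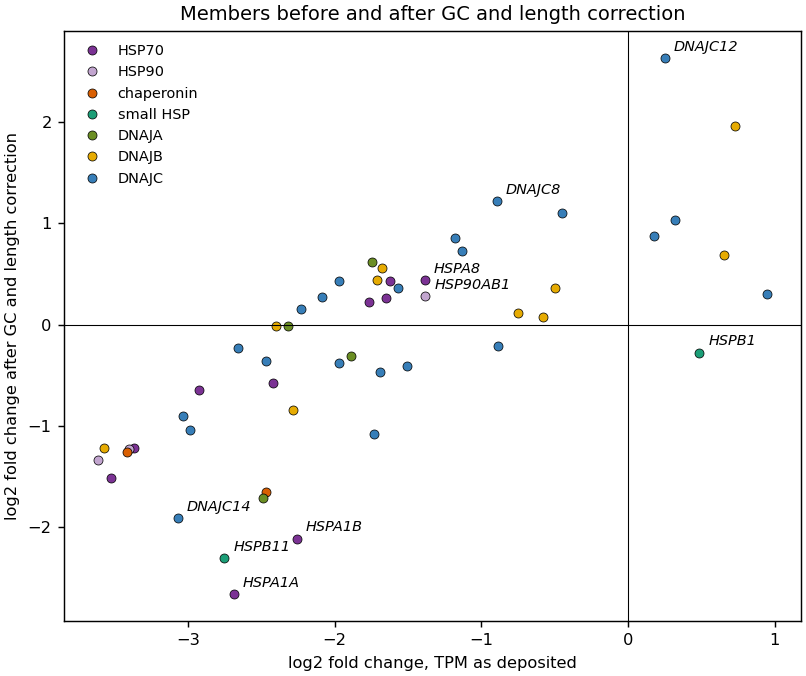
Log2 fold change of each tested member once corrected for GC and length (vertical) against that on TPM as deposited (horizontal), siVCPIP1 over siControl, coloured by family. HSPA1A and HSPA1B stay low after correction, at -2.66 and -2.12, HSPA8 and HSP90AB1 move to 0.44 and 0.28, and DNAJC12, with 1.25 ± 0.172 TPM in siVCPIP1 cells and 0.887 ± 0.0929 TPM in siControl cells (SD, n = 3 each), moves to 2.64.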

How the data were processed

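RNA from 6 AsPC-1 libraries was read as gene-level TPM; per the file headers the authors deposited 1 table with a TPM column per library. Per the submitters' processing notes the build was GRCh38.p13. Aligner, quantifier and annotation: not given in the sources used here. Depth is unknown, since TPM keeps none, so no counting interval is given. Genes averaging 1 TPM or more were tested with limma 3.58.1 in R 4.3.3 on log2(TPM + 1), group as the only term, two-sided, with Benjamini-Hochberg adjustment over 10966 genes (threshold 0.05). A fold change on this scale understates that of low genes. The procedure was tested on simulated data. The members and lists were chosen with earlier results of these data known. Genes were named by rule: in each family the 6 most abundant and the 4 largest called rises and falls, the members of 8 pairs, and HSF1, HSF2 and the 5 largest changes each way of the co-chaperone list; the other members were added to account for all. GC content, length and positions came from GENCODE 29 (1 transcript per gene), and promoters from RefSeq, GRCh38.p14. GC and length correction removed splines on each (5 and 3 degrees of freedom) and the products of these splines from every library, over 10915 genes. They were fitted to each gene's deviations from its mean over the 6 libraries. The alternatives also included median-of-ratios scaling, quantile normalization, a pseudocount of 0.1, no filter, a replicate block and leaving out each library; the GC correction with a pseudocount of 0.1, and the scalings and corrections of the ratios, were added after seeing the data.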

Additional observations from a re-analysis of the deposited data

How the results depend on the processing

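Counts moved with scaling and with GC and length correction. Genes higher numbered 4416 under median-of-ratios scaling, 4512 under quantile normalization, 4063 after GC and length correction and 3932 after that correction with a pseudocount of 0.1 TPM, against 1646 on TPM as deposited. Genes lower numbered 4454 under quantile normalization, 3463 after GC and length correction and 3381 with the smaller pseudocount, against 7241. Members higher numbered 11, 10, 17 and 20 in those 4 fits, against 4, and members lower 23 and 19 in the 2 corrected fits, against 44. Co-chaperones higher numbered 22, 18, 20 and 21, against 11, and lower 9 and 7 in the corrected fits, against 25. The cause of these shifts was not tested.

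Signs turned for single genes. Median-of-ratios scaling gave DNAJB1 0.46, DNAJB12 0.65, DNAJB5 0.53, DNAJC5 0.31, DNAJC7 0.77 and DNAJC8 0.32, and quantile normalization gave DNAJB12 0.78, DNAJB5 0.89, DNAJC15 0.43 and DNAJC16 0.028. GC and length correction gave DNAJA1 0.62, DNAJB1 0.12, DNAJB12 0.36, DNAJB14 0.44, DNAJB4 0.56, DNAJB5 0.077, DNAJC15 0.86, DNAJC16 0.73, DNAJC2 0.27, DNAJC24 0.43, DNAJC25 0.16, DNAJC7 1.10, DNAJC8 1.22, DNAJC9 0.36, HSF2 0.12, HSP90AB1 0.28, HSPA4 0.43, HSPA4L 0.26, HSPA8 0.44, HSPA9 0.22, HSPB1 -0.28 and VCPIP1 0.27. With the pseudocount of 0.1 TPM added, the corrected values were DNAJA1 1.15, DNAJA2 0.45, DNAJB1 0.24, DNAJB12 0.49, DNAJB14 1.08, DNAJB4 1.02, DNAJB5 0.13, DNAJC15 1.47, DNAJC16 0.56, DNAJC2 0.68, DNAJC24 0.065, DNAJC7 1.35, DNAJC8 1.59, DNAJC9 0.71, HSP90AB1 0.59, HSPA4 1.04, HSPA4L 0.41, HSPA8 0.78, HSPA9 0.82 and HSPB1 -0.34. HSPA5, DNAJC10, DNAJC21 and DNAJC22 were not called in that last fit.

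Leaving out 1 library at a time gave 42 to 48 members lower and 3 to 5 higher, 6532 to 7853 genes lower and 1237 to 1845 higher, and 23 to 27 co-chaperones lower and 8 to 12 higher. The 8 ratios kept their direction with a pseudocount of 0.1 TPM, under the block, without each library and under median-of-ratios scaling. Quantile normalization turned DNAJB9 over DNAJB11 to 0.38. GC and length correction turned HSPD1 over HSPE1 to 0.40, DNAJA1 over DNAJB1 to 0.51 and DNAJB9 over DNAJB11 to 0.82, and with a pseudocount of 0.1 TPM these were 0.74, 0.91 and 0.54 and HSPA9 over HSPA8 was 0.045. The scalings and corrections of the ratios were chosen after seeing the data. The replicate block gave 44 members lower and 4 higher and changed no call among the named genes. Deviations of same-numbered libraries correlated at 0.53, -0.27 and 0.16, and siVCPIP1 replicate 2 correlated best with siControl replicate 1, so the numbers were not treated as pairs. TPM without depth limits what can be said of members below 1 TPM.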
